A study of Bos taurus with 8 samples.

Results

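The genes described here are those of glycolysis, pyruvate and lactate handling, glycogen turnover, the creatine kinases and myoglobin. They were picked by symbol, 42 of the 18871 named genes in the deposited table, by a rule that uses no measured value, although earlier results of these data were known when the list was drawn up. All 42 were present and all 42 were among the 18339 genes tested, those whose counts summed to 20 or more. Within them, *CKM*, *PYGM*, *PGAM2*, *ENO3* and *PFKM* are the isoforms known from skeletal muscle, and the other 37 members are widely used forms, forms known from other tissues such as brain and liver, subunits of phosphorylase kinase that include muscle forms, and myoglobin.

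Glycolysis turns glucose into pyruvate, which is either reduced to lactate and exported or passed to the pyruvate dehydrogenase complex of mitochondria. Glycogen phosphorylase releases glucose units from stored glycogen, and creatine kinase moves phosphate between ATP and creatine as a quick energy store. Skeletal muscle replaces many of the widely used isoenzymes with its own as it differentiates, and adult muscle fibres hold these muscle isoforms and myoglobin at very high levels.

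The study grew clones from single cells of the stromal vascular fraction, the cells left once adipocytes are removed from digested fat, of adult Angus-cross steers finished on a high-energy diet. There were 4 clones from intramuscular fat (IMF) dissected out of *longissimus dorsi* muscle and 4 from subcutaneous fat (SF), labelled IMF1 to IMF4 and SF1 to SF4. No transgene is named for any clone, all were expanded in the same serum medium, and each is the offspring of a single cell chosen by the authors for growth, capacity to form adipocytes and fibroblast-like shape. The methods place RNA collection before confluence in that medium, whereas the deposited design text places it after adipogenic induction, so it is unresolved whether the cells had met the hormones and drugs used for induction. The labels and the methods give different numbers of steers. The study describes each clone as coming from an SVF (stromal vascular fraction) sample of its depot, and which IMF and SF clones share an animal is not stated. P-values therefore measure the spread between these clones. In RNA from a whole clone, fewer cells of a type and less RNA per cell cannot be told apart.

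The IMF libraries held 19654917 to 29308882 reads assigned to named genes and the SF libraries 19979899 to 24868233. At this depth 3 counts, the smallest level taken as shown, corresponded to between 0.0981 and 0.165 CPM (the usual library-scaled count, after TMM scaling by edgeR), and this floor covers counting error only. By edgeR's test, with an adjusted p under 0.05 and a change of at least 1 on the log2 scale as the threshold, which 8.82% of all genes passed, the 8 myogenic markers tested (*MYOD1*, *MYF5*, *MYOG*, *DES*, *CDH15*, *ITGA7*, *MYH3* and *ACTA1*) were all higher in IMF, with a summed level of 762 to 881 CPM in IMF and 0.751 to 31.4 CPM in SF clones. The 8 endothelial markers tested were also all higher in IMF, with sums of 128 to 147 CPM against 2.72 to 4.40 CPM. By the same threshold, 4 of 5 smooth muscle and pericyte markers were lower and 1 was higher in IMF, 1 of 4 leukocyte markers was lower, 1 of 3 adipocyte markers was higher, and of 5 preadipocyte markers 1 was higher and 1 lower. A second leukocyte marker, *PTPRC*, missed it with the groups separate (log2 fold change -1.79, adjusted p = 0.0518). Of the preadipocyte markers, *PDGFRA*, a receptor of adipose progenitors, was measured at 184 ± 2.84 CPM over the IMF clones against 131 ± 23.2 CPM over the SF clones (SD, n = 4 each; adjusted p = 0.0214, below the fold threshold), whereas *CD34* lay under the floor in every SF clone, with 2 counts at most, and *PPARG*, the main regulator of adipogenesis, was low in both groups (1.23 ± 0.244 CPM over IMF and 3.13 ± 0.538 CPM over SF clones). *MYOD1*, *MYOG*, *KDR* and *EMCN* had 0 counts in every SF clone. The myogenic and endothelial lists thus separated the same clones as the results given here, and their part in the results was not tested.

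The 42 members took a larger part of the reads in IMF than in SF clones. Their counts made up 0.828% to 0.940% of the counts of an IMF clone and 0.618% to 0.770% of those of an SF clone, and the groups did not overlap. The most abundant of the members that differed was *PKM* (pyruvate kinase), at 2209 ± 93.0 CPM over IMF and 1340 ± 169 CPM over SF clones, whereas the muscle isoforms together summed to 49.3 to 57.4 CPM in IMF and 17.0 to 26.4 CPM in SF clones. Compared per base of gene length, in TPM (the library-scaled count corrected for length), the member with the highest level was *GAPDH*, the dehydrogenase that makes NADH, at 1627 ± 151 TPM in IMF and 1598 ± 163 TPM in SF (SD, n = 4 each), the highest in both groups. Ranked by the mean over IMF and SF, it was followed by *PKM*, *ENO1* (the common enolase), *PGAM1* (the common phosphoglycerate mutase) and *PGK1* (phosphoglycerate kinase). On the same ranking the lowest member was *PYGM*, at 1.56 ± 0.249 TPM in IMF and 0.0547 ± 0.0285 TPM in SF, where *CKM* was lower still, at 0 in every clone.

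**Figure D1:**
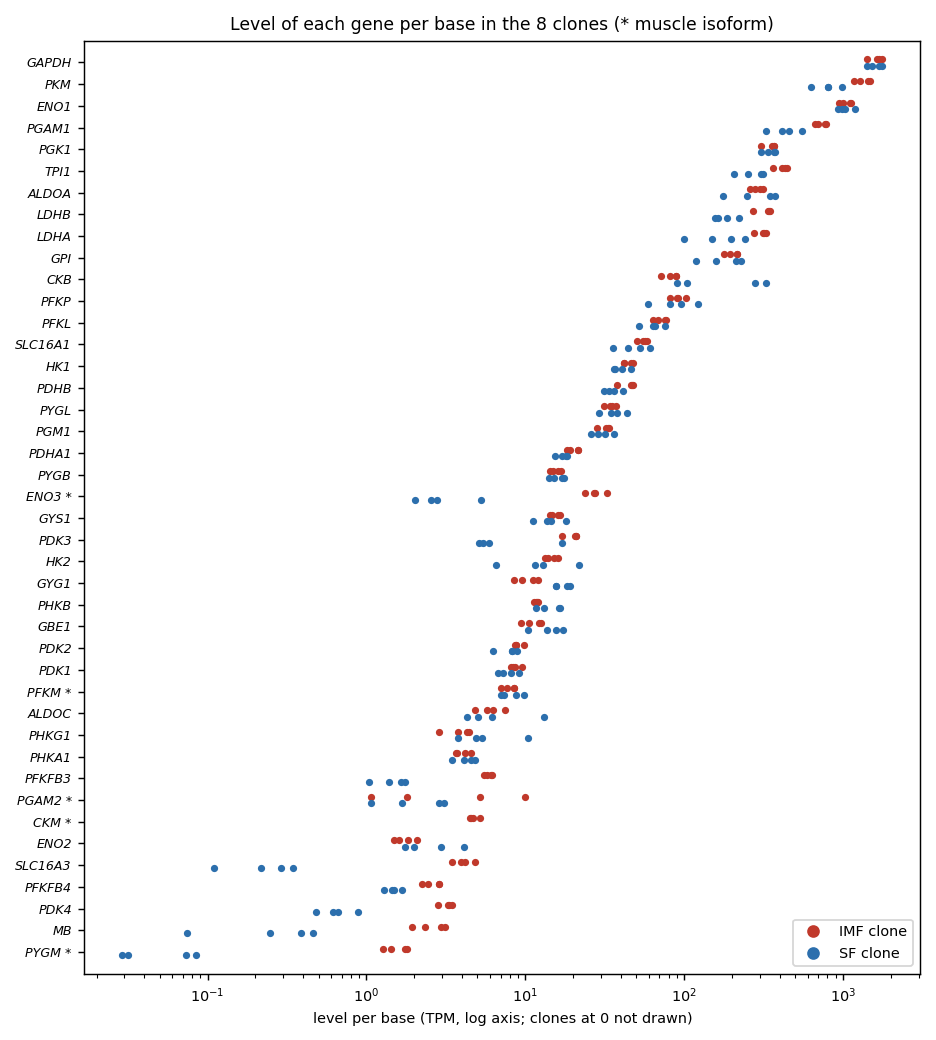
Level of each of the 42 genes per base of gene length in TPM on a log axis, with 1 point per clone, IMF in red and SF in blue, ordered by mean level. Clones at 0 are not drawn. *GAPDH*, *ENO1* and *PGK1* lie near the top with the groups mixed, while *SLC16A3*, *PDK4*, *MB* and *PYGM*, all under 10 TPM, show separate groups. *CKM*, also under 10 TPM, has points for IMF clones only, since every SF clone was at 0.

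Members were compared between the 4 IMF and the 4 SF clones with edgeR's quasi-likelihood test, fitted on all genes tested with Benjamini-Hochberg adjustment. The threshold asked for an adjusted p under 0.05 together with a change of at least 1 on the log2 scale in either direction. In all, 7 of the 42 members (16.7%) were past the threshold, all 7 higher in IMF, where 8.82% of all genes tested were past it, 4.78% past it and higher in IMF, and 4.04% past it and lower. These 7 were *CKM*, *PYGM*, *ENO3*, *MB*, *SLC16A3*, *PDK4* and *PFKFB3*. The higher direction made up 54.2% of all calls, against 66.7% with scaling by total counts alone, which moved the median log2 fold change of the genes tested from -0.03 to 0.12. No member was past the threshold and lower in IMF by edgeR or limma-voom, against 1 by DESeq2 (*CKB*) and 1 by edgeR at an unadjusted p under 0.05 with the same fold, which 6.05% of all genes reached. Without the fold threshold, 14 members were higher and 2 lower in IMF (33.3% and 4.76%, against 14.4% and 11.4% of all genes). The groups did not overlap in 19 members, or 45.2%, against 32.1% of all genes. The median log2 fold change, IMF over SF (log2FC), was 0.14 over the 42 members and -0.03 over all genes tested.

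**Figure D2:**
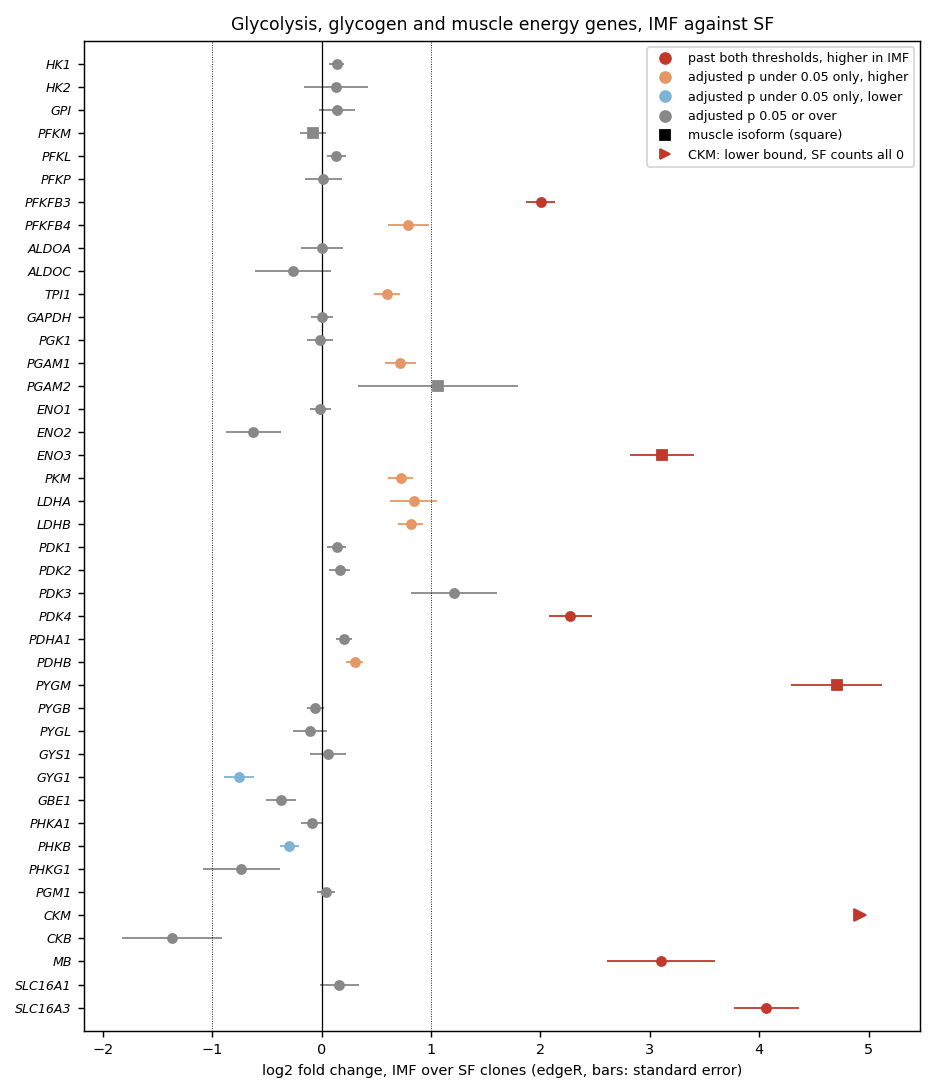
Log2 fold change (log2FC) of each member, IMF over SF, with its standard error (SE). Members are listed from hexokinase (*HK1*) through the glycolysis, pyruvate, glycogen, creatine kinase and myoglobin genes to the lactate transporters. Squares mark muscle isoforms and dotted lines the fold threshold of 1, and *CKM* is drawn at its lower bound because no SF clone had a count. The members past both thresholds all lie to the right of the upper dotted line, from 2.00 for *PFKFB3* upwards.

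Of the 5 muscle isoforms, 3 rose in IMF clones past the threshold, as did 4.78% of all genes tested. *CKM*, the cytosolic creatine kinase of muscle (chromosome 18, 52956486 to 52965891 in ARS-UCD2.0), had 97, 144, 88 and 95 counts in IMF1 to IMF4 and 0 in each SF clone. It measured 4.65, 4.71, 3.99 and 4.52 CPM in the IMF clones, at least 30.2-fold higher than a floor of 3 counts in each SF clone (adjusted p = 0.000101). Every IMF clone thus lay far above the floor, within a narrow range. *PYGM*, the glycogen phosphorylase of muscle (chromosome 29, 42985604 to 42997404), had 43, 97, 63 and 55 counts in IMF1 to IMF4 and 1, 1, 3 and 3 in SF1 to SF4. It was at least 18.1-fold higher in IMF (2.68 ± 0.468 CPM, SD, n = 4; adjusted p = 0.00013). *ENO3*, the enolase of muscle (chromosome 19, 26439577 to 26445332), stood at 31.7, 29.4, 26.3 and 25.8 CPM in IMF1 to IMF4 and at 5.54, 2.65, 1.99 and 2.98 CPM in SF1 to SF4. It was the most abundant of the 5 muscle isoforms per base in IMF, at 27.7 ± 3.70 TPM, and it was present in all SF clones, with SF1 the highest. The log2FC was 3.11 (SE 0.29, adjusted p = 0.000178).

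*PFKM* and *PGAM2* did not pass the test. *PFKM*, the phosphofructokinase of muscle (chromosome 5, 32145678 to 32189038), stood at 15.9, 14.8, 15.7 and 16.1 CPM in IMF1 to IMF4 and at 19.9, 16.1, 13.4 and 16.8 CPM in SF1 to SF4. The IMF values lay inside the SF range (log2FC -0.08, SE 0.12, adjusted p = 0.662), and the sign turned with scaling by total counts alone (0.07). *PGAM2*, the phosphoglycerate mutase of muscle (chromosome 22, 390223 to 392579), was the least even member among the IMF clones, with 18, 163, 11 and 58 counts. In the SF clones it had 17, 10, 37 and 30 counts, so that in CPM IMF1 and IMF3 lay at the low end of the SF clones while IMF2 and IMF4 lay above them. The log2FC of *PGAM2* was 1.07 (SE 0.73, adjusted p = 0.328) and became 0.27 without IMF2. Myoglobin, the oxygen carrier of muscle fibres, is no enzyme isoform but followed the first 3. *MB* (chromosome 5, 73814162 to 73824954) had 40, 62, 26 and 34 counts in IMF1 to IMF4 and 6, 3, 6 and 1 in SF1 to SF4, 1.69 ± 0.380 against 0.189 ± 0.110 CPM (SD, n = 4 each; log2FC 3.10, SE 0.49, adjusted p = 0.00234). Its highest SF level, 0.308 CPM in SF1, lay under its lowest IMF level, 1.18 CPM in IMF3.

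**Figure D3:**
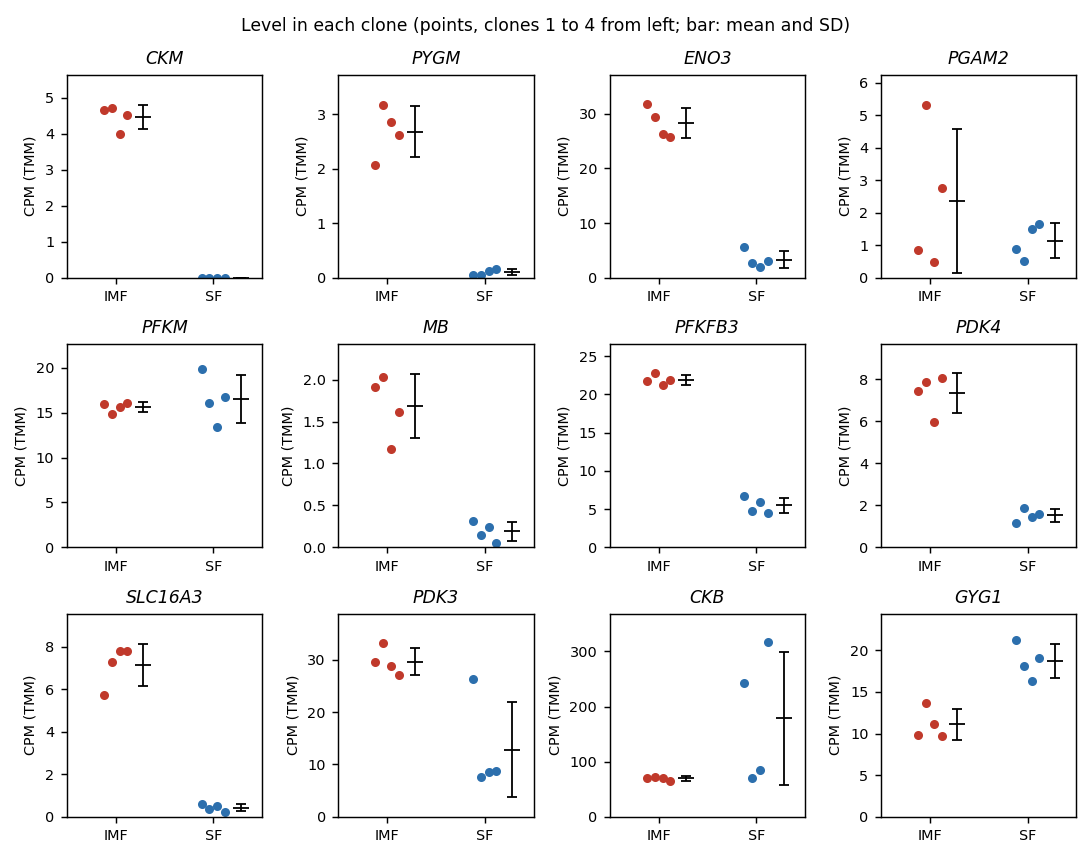
TMM-scaled CPM in each clone for 12 members, with the mean and SD beside the points. *CKM*, *PYGM*, *ENO3*, *MB*, *PFKFB3*, *PDK4* and *SLC16A3* show separate groups, *PFKM* and *PGAM2* overlap, SF1 stands with the IMF clones in *PDK3*, and SF1 and SF4 stand above all other clones in *CKB*.

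The muscle isoforms were then set against the other isoforms of the same enzyme within each clone, as a share of the family's counts per base, which does not depend on how libraries are scaled. In every clone and in all 5 families the muscle isoform took a small part of the family's level, with a highest share of 7.26%, that of *PFKM* in SF1. It was not always the smallest part, since *ENO3* (27.7 ± 3.70 TPM) exceeded *ENO2* (1.75 ± 0.258 TPM) in IMF. *ENO3* made up 2.58% ± 0.187 of the enolase level in IMF and 0.306% ± 0.142 in SF (SD, n = 4 each). Its lowest IMF share was 2.41% (IMF3, 95% Wilson interval 2.23% to 2.62%) and its highest SF share 0.505% (SF1, 0.419% to 0.610%), intervals that cover counting error only. *PYGM* made up 3.02% ± 0.432 of the glycogen phosphorylase level in IMF and 0.102% ± 0.0463 in SF. *CKM* made up 5.44% ± 0.438 of the *CKM* and *CKB* level in IMF and 0 in SF, where a count of 0 allows a share of up to 0.0467% to 0.190% depending on the clone. For *PGAM2* the shares were 0.637% ± 0.585 and 0.499% ± 0.193, and for *PFKM* 4.65% ± 0.340 and 5.23% ± 1.45. The groups did not overlap for *ENO3*, *PYGM* and *CKM*. Each gave p = 0.0286 in the two-sided exact permutation test, the smallest p that 4 clones against 4 allow, and 0.0643 after adjustment over the 9 families compared, so that none passed the correction.

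**Figure D4:**
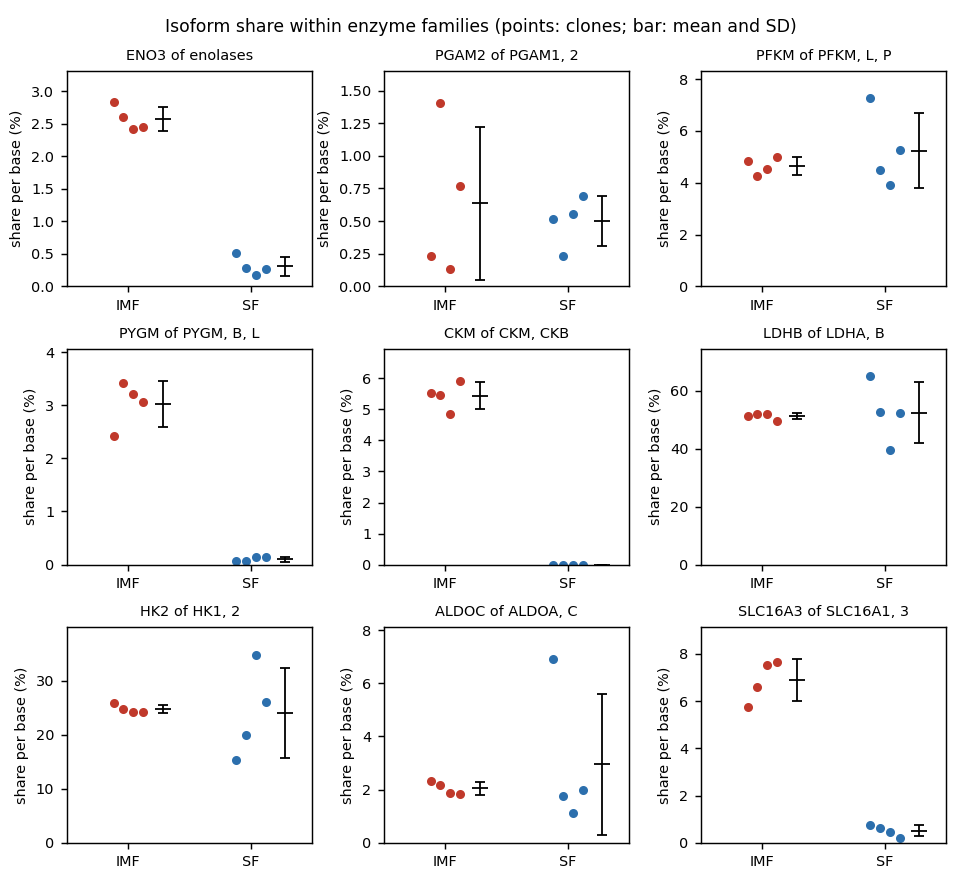
Share of 1 isoform in its enzyme or transporter family per base of gene length, in percent, for each clone, with the mean and SD of each group. *ENO3*, *PYGM*, *CKM* and *SLC16A3* show separate groups, and *LDHB*, *HK2* and *ALDOC* are even among IMF clones and spread among SF clones.

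Of the 11 upper glycolysis members, 3 had an adjusted p under 0.05, all higher in IMF, namely *PFKFB3*, *PFKFB4* and *TPI1*. That is 27.3% of them, against 25.8% of all genes in either direction and 14.4% higher in IMF. The enzymes from hexokinase to aldolase did not pass the test. *HK1* and *HK2* (hexokinases), *GPI* (glucose phosphate isomerase), *PFKL* and *PFKP* (phosphofructokinases of liver and platelet) and *ALDOA* (the aldolase of muscle and most other tissues) had log2FC values from 0.0072 to 0.14 with SEs from 0.07 to 0.29, and none of the 6 passed the test (adjusted p from 0.189 to 0.983). The signs of *PFKP* and *ALDOA* turned with another filter on low counts. The SF clones were spread more widely. *HK2*, the hexokinase of insulin-responsive tissues, stood at 48.4, 47.0, 44.9 and 45.0 CPM in IMF1 to IMF4 and at 21.4, 34.1, 66.6 and 46.9 CPM in SF1 to SF4, with SF1 the lowest and SF3 the highest of all 8. *ALDOC*, the aldolase of brain, measured 16.3 CPM in SF1 and between 5.03 and 8.54 CPM in the other 7 clones (log2FC -0.26, adjusted p = 0.626).

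*PFKFB3* and *PFKFB4* encode bifunctional enzymes that make and remove the main activator of phosphofructokinase, and the form encoded by *PFKFB3* favours making it. *PFKFB3* (chromosome 13, 17098741 to 17372190) stood at 21.8, 22.8, 21.2 and 21.9 CPM in IMF1 to IMF4 and at 6.67, 4.81, 5.92 and 4.46 CPM in SF1 to SF4. The IMF clones were within 2 CPM of each other and about 4.00-fold higher (log2FC 2.00, SE 0.13, adjusted p = 3.18e-05). *PRKCQ*, a gene annotated as overlapping *PFKFB3*, was measured at 0.999 ± 0.491 CPM over IMF and 2.38 ± 0.954 CPM over SF clones, in the opposite order. In all, 7 members overlap another tested gene in the annotation, and the labels describe a protocol that marks strand whereas the methods name a kit that does not, so reads shared by such pairs may not have been told apart. *PFKFB4* measured 5.64 ± 0.869 CPM over the IMF clones against 3.26 ± 0.593 CPM over the SF clones (SD, n = 4 each), 1.73-fold higher without reaching the fold threshold (adjusted p = 0.0156, and 0.0528 without IMF2).

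From triose phosphate isomerase (*TPI1*, the last of the upper glycolysis members) down to pyruvate kinase, *TPI1*, *PGAM1* and *PKM* were higher in IMF, as was the muscle enolase *ENO3* given above, whereas *GAPDH*, *PGK1*, *ENO1* and *ENO2* did not pass the test. The first 3 had adjusted p-values under 0.05 and were 1.51-fold, 1.65-fold and 1.65-fold higher in IMF, below the fold threshold. *PKM*, which makes pyruvate, stood at 2241, 2251, 2273 and 2071 CPM in IMF1 to IMF4 and at 1378, 1232, 1562 and 1188 CPM in SF1 to SF4 (log2FC 0.72, SE 0.12, adjusted p = 0.00285). *PGAM1* stood at 746, 755, 736 and 720 CPM in IMF1 to IMF4 and at 341, 433, 543 and 480 CPM in SF1 to SF4 (adjusted p = 0.00672). The groups did not overlap in either gene. *GAPDH*, *PGK1* and *ENO1* had log2FC values from -0.01 to 0.0055 with SEs from 0.10 to 0.12. *PGK1* and *ENO1* catalyse the steps directly before and after the mutase, and *GAPDH* acts before *PGK1*. *GAPDH* stood at 1272, 1323, 1187 and 1142 CPM in IMF1 to IMF4 and at 1102, 1186, 1298 and 1318 CPM in SF1 to SF4. *ENO1* stood at 1141, 1149, 1113 and 1075 CPM in IMF1 to IMF4 and at 1143, 987, 1237 and 1144 CPM in SF1 to SF4. *PGK1* stood at 379, 412, 374 and 352 CPM in IMF1 to IMF4 and at 419, 307, 388 and 418 CPM in SF1 to SF4. The groups overlapped in all 3 of these genes, and the sign of each turned with another scaling or filter. *ENO2*, the enolase of neurons, was measured at 2.33 ± 0.218 CPM over IMF and 3.59 ± 1.16 CPM over SF clones (adjusted p = 0.105). Abundant genes such as *GAPDH*, *PGAM1*, *LDHB* and *TPI1* are known for processed copies elsewhere in mammalian genomes, and how reads matching several places were counted is not given in the sources used here, so that their levels are uncertain to that extent.

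Of the 10 pyruvate and lactate members, 5 had an adjusted p under 0.05 and 2 were past both thresholds, all higher in IMF. That is 50% and 20% of them, against 14.4% and 4.78% of all genes tested that were higher in IMF. Both lactate dehydrogenase genes were among the 5, and 1 of the 2 lactate transporters was among those past the threshold. *LDHA*, the form that favours making lactate, stood at 386, 415, 369 and 364 CPM in IMF1 to IMF4 and at 128, 228, 288 and 212 CPM in SF1 to SF4 (1.79-fold, adjusted p = 0.0224). *LDHB*, the form of heart and other oxidative tissue, stood at 266, 292, 259 and 235 CPM in IMF1 to IMF4 and at 156, 167, 124 and 152 CPM in SF1 to SF4 (1.76-fold, adjusted p = 0.00138). The adjusted p of *LDHA* was 0.05 or over in 3 of the 16 alternatives run (0.0586 without IMF2, 0.0525 without IMF3 and 0.0526 without SF4). Both genes separated the groups, neither reached the fold threshold, and the mean balance of the pair was close, with *LDHB* at 51.1% ± 1.03 of the pair's level per base in IMF and 52.4% ± 10.5 in SF (two-sided exact permutation test, p = 0.6, adjusted p = 0.918; n = 4 each). *SLC16A3*, the proton-linked lactate exporter of glycolytic muscle and other glycolytic cells (chromosome 19, 50634317 to 50646351), had 119, 222, 172 and 164 counts in IMF1 to IMF4 and 12, 7, 12 and 4 in SF1 to SF4. It measured 7.14 ± 0.989 CPM over the IMF clones against 0.418 ± 0.171 CPM over the SF clones (SD, n = 4 each), a log2FC of 4.07 (SE 0.30, adjusted p = 5.16e-05). *CSNK1D*, annotated as overlapping it, differed by a log2FC of -0.10. *SLC16A1*, the widely used transporter for lactate and pyruvate, measured 115 ± 5.15 CPM over IMF and 103 ± 26.6 CPM over SF clones (adjusted p = 0.553). It was the major form per base in all 8 clones, with *SLC16A3* at 6.89% ± 0.893 of the pair in IMF and 0.514% ± 0.236 in SF (two-sided exact permutation test, p = 0.0286, adjusted p = 0.0643; n = 4 each).

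Pyruvate dehydrogenase kinases switch off pyruvate dehydrogenase, and *PDK4* is the form that rises in muscle and fat during fasting. *PDK4* (chromosome 4, 12881889 to 12895362) stood at 7.44, 7.85, 5.94 and 8.04 CPM in IMF1 to IMF4 and at 1.13, 1.85, 1.46 and 1.60 CPM in SF1 to SF4, 4.83-fold higher in IMF with separate groups (log2FC 2.27, SE 0.20, adjusted p = 0.000126). *PDK3* stood at 29.5, 33.2, 28.7 and 27.0 CPM in IMF1 to IMF4 and at 26.4, 7.56, 8.48 and 8.76 CPM in SF1 to SF4. SF1 lay just under the lowest IMF clone, and *PDK3* missed the threshold (log2FC 1.21, SE 0.39, adjusted p = 0.0525). Without SF1 it passed, with a log2FC of 1.84 and an adjusted p of 2.51e-05, and with all clones *PDK3* passed by DESeq2 and limma-voom (adjusted p = 0.0153 and 0.0106). It also passed by edgeR with scaling by total counts alone (adjusted p = 0.0308) and with the clone number as a block. *PDK1* and *PDK2*, the forms of heart and of most tissues, had log2FC values of 0.14 and 0.16 and did not pass. Of the dehydrogenase subunits, *PDHB* was 1.23-fold higher in IMF (adjusted p = 0.022, and 0.0538, 0.0639 and 0.0589 without IMF1, IMF2 or IMF3), and *PDHA1* had a log2FC of 0.20 with an adjusted p of 0.0644.

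Among the 10 glycogen members, *PYGM* was the only one past the threshold. That is, 1 was higher and 0 lower past both thresholds by edgeR. This is 10% of them, against 8.82% of all genes past the threshold in either direction and 4.78% past it and higher. At an unadjusted p under 0.05, 3 were lower, none of them by the fold threshold, where 17.8% of all genes were lower at that p. DESeq2 and limma-voom also called 0 of the 10 lower. *GYG1*, glycogenin, the protein primer on which glycogen is built, stood at 9.79, 13.7, 11.2 and 9.66 CPM in IMF1 to IMF4 and at 21.2, 18.2, 16.3 and 19.1 CPM in SF1 to SF4. All SF clones lay above all IMF clones (log2FC -0.75, SE 0.14, adjusted p = 0.00486), by less than the fold threshold. *PHKB*, a regulatory subunit of phosphorylase kinase, was 1.23-fold higher in SF (adjusted p = 0.0332), but with scaling by total counts alone its adjusted p was 0.375, and it was 0.05 or over in 6 of the 16 alternatives run. *PYGL* and *PYGB*, the phosphorylases of liver and brain, *GYS1* (the glycogen synthase of muscle and most tissues), *GBE1* (the branching enzyme), *PHKA1* (the muscle form of a phosphorylase kinase subunit), *PHKG1* (its catalytic subunit in muscle) and *PGM1* (phosphoglucomutase) did not pass, with log2FC values from -0.73 to 0.06. *PHKG1* ranged from 3.62 to 4.94 CPM among the IMF clones and stood at 4.57, 5.91 and 5.60 CPM in SF1 to SF3 but at 14.1 CPM in SF4. The groups overlapped in each of the 7 that did not pass.

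*CKB*, the creatine kinase of brain and many other tissues, had the lowest log2FC of the members. It stood at 70.9, 72.8, 69.8 and 64.2 CPM in IMF1 to IMF4 and at 243, 70.4, 84.9 and 316 CPM in SF1 to SF4. SF1 and SF4 stood high while SF2 was level with the IMF clones, and the difference did not pass (log2FC -1.36, SE 0.46, adjusted p = 0.0599). For *CKB*, DESeq2 gave -1.37 with an adjusted p of 0.0113, and the edgeR test passed without SF2 (-1.63, adjusted p = 0.0201) or without SF3 (-1.63, adjusted p = 0.0317). In both groups *CKB* made up most of the level of the pair per base.

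The IMF clones were more alike than the SF clones. The coefficient of variation of CPM was higher among SF than among IMF clones in 38 of the 41 members that have a value in both groups (*CKM* has none in SF, where every count was 0), and in 65.1% of all such genes. Its median over the members was 5.92% in IMF and 18.6% in SF, against 10.5% and 20.9% over all genes tested. The exceptions were *PGAM2*, with 93.6% in IMF and 47.7% in SF, *PDHB*, with 8.15% and 4.91%, and *GYG1*, with 16.9% and 10.9%.

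Further genes of the same pathways, listed by function and not by how they moved, are given by the same test, beside the 8.82% of all genes past the threshold. Of 12 other genes of glycolysis and gluconeogenesis tested, 0 passed both thresholds by edgeR, and at an unadjusted p under 0.05 alone 1 was higher and 2 were lower, against 20.2% and 17.8% of all genes. Of 12 other pyruvate and lactate genes, 1 passed, *SLC16A7*, another monocarboxylate transporter, which was higher (16.3 ± 1.24 CPM over IMF and 3.80 ± 1.40 CPM over SF clones, SD, n = 4 each; log2FC 2.10). At an adjusted p under 0.05 alone, 3 of the 12 were higher (25%, against 14.4% of all genes). By that measure 1 was lower (8.33%, against 11.4% of all genes), *BSG* (log2FC -0.54, adjusted p = 0.0193). Of 21 other glycogen genes, 1 was higher and 1 lower. The higher one was *PGM5* (log2FC 2.12, adjusted p = 0.00424), a relative of phosphoglucomutase found at muscle cell junctions and known to lack most of its enzyme activity, and the lower one was *STBD1* (log2FC -1.71, adjusted p = 0.00157), which tethers glycogen to membranes. Of 9 other phosphagen and nucleotide energy genes, 2 passed, both higher. *AMPD3*, an AMP deaminase, measured 14.8 ± 0.396 CPM over IMF and 0.319 ± 0.129 CPM over SF clones (log2FC 5.52). *GATM*, which makes the precursor of creatine, had a log2FC of 2.03 (adjusted p = 0.0283). At an adjusted p under 0.05 alone, 4 of the 9 were higher (44.4%) and 1 was lower (11.1%), *AK1* (log2FC -0.91, adjusted p = 0.00138). Of 19 hypoxia factors and targets, 2 passed (10.5%), both higher in IMF. They were *HIF1A*, the oxygen-regulated factor known to drive many glycolytic genes (222 ± 5.66 CPM over IMF and 108 ± 12.2 CPM over SF clones, log2FC 1.03), and *SLC2A1*, a glucose transporter (log2FC 1.10, adjusted p = 0.0333). Over the 19 genes the median log2FC was 0.21, and *VEGFA*, another target, had -0.91, below the fold threshold (adjusted p = 0.00329). At an adjusted p under 0.05 alone, 3 of the 19 were higher and 2 lower, or 15.8% and 10.5%. Only RNA was measured, and a part of *HIF1A* in these results was not tested.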

How the data were processed

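RNA sequencing of 8 bovine clones was analysed from the table of raw read counts per gene that the authors deposited. Per the labels, reads were trimmed with Trimmomatic 0.39, aligned with STAR 2.7.11a and counted with featureCounts 2.0.2, whereas the methods name HISAT2, and the treatment of reads matching several places is not given in the sources used here. The authors' group means, fold changes and p-values in the same table were not used. The 1 row without a gene name, 0.0148% to 0.0209% of counts, was left out.

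Groups came from the labels. Genes whose counts summed to 20 or more were compared between IMF and SF with edgeR 4.0.16 (TMM, quasi-likelihood test, Benjamini-Hochberg adjustment over all genes tested) in R 4.3.3, which stood in for the DESeq2 of the study, and DESeq2 1.42.0 and limma-voom (limma 3.58.1) were alternatives, beside other scalings, filters, a prior count of 2, a block for the clone number and the removal of single clones. TPM was computed here from the deposited gene length. Isoform shares were compared by a two-sided exact permutation test over the 70 splits of the clones, written in Python 3.11.15. Wilson intervals were computed with scipy 1.17.1. The scripts were tested on simulated data. All 42 members were matched by symbol to RefSeq ARS-UCD2.0 for positions.

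All 42 members could be named. Values in every clone were to be given for those past the threshold, for the 5 muscle isoforms and for the 5 with the highest mean level per base, and genes of other lists were to be named where past the threshold. *CKB*, *PDK3*, *HK2*, *LDHA*, *LDHB* and *GYG1* were given in every clone, and *VEGFA*, *AK1*, *BSG*, *PTPRC* and *PDGFRA*, which did not pass the threshold, were named, after their values were seen. *PRKCQ* and *CSNK1D* were named because they overlap members, *PFKFB3* and *SLC16A3*, which were past the threshold. Tested genes that overlap other members were left unnamed. The marker lists were given mainly as counts and sums, with some of their genes past the threshold left unnamed. The members and lists were chosen with earlier results of these data known.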

Additional observations from a re-analysis of the deposited data

Results flagged for a closer look

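In 7 of the 102 sets of 4 clones that were looked at, 1 clone stood apart from the other 3 by Dixon's criterion, and chance alone flags about 1 in 20 such sets. *PKM* was 2071 CPM in IMF4 and 2241 to 2273 CPM in the other IMF clones. *PDK1* was 18.4 CPM in IMF1 and 21.4 to 21.8 CPM in the others. *PHKA1* was 11.6 CPM in IMF1 and 10.4 to 10.5 CPM in the others, and *PHKG1* was 3.62 CPM in IMF4 and 4.74 to 4.94 CPM in the others. Among the SF clones, *PDK3* was 26.4 CPM in SF1 and 7.56 to 8.76 CPM in the others, and *PHKG1* was 14.1 CPM in SF4 and 4.57 to 5.91 CPM in the others. The share of *ALDOC* in the aldolase pair was 6.91% in SF1 and 1.14% to 1.98% in the other SF clones.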

How the results depend on the processing

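Over 672 alternative values of the members' log2 fold changes, 622 kept their direction and side of the threshold, and the 7 members past it kept their call in all 16 alternatives. *PDK3* and *CKB* came past it in 5 and 3 alternatives. The count of members lower in IMF was 1 with DESeq2 and 0 to 1 when 1 clone was left out (1 without SF2 or without SF3, *CKB* each time). *LDHA*, *PDHB*, *PFKFB4* and *PHKB* had an adjusted p of 0.05 or over in 3, 3, 1 and 6 of the 16. *PDHA1*, *GBE1*, *ENO2* and *GYS1*, at 0.05 or over in the main fit, were so in 13, 14, 15 and 15 of the 16. Their lowest adjusted p-values over the alternatives were 0.0191, 0.00424, 0.0345 and 0.0497. Scaling by total counts alone moved the median over all genes from -0.03 to 0.12 and made 66.7% of the genes called higher in IMF. It turned the sign of *PFKM* (0.069), *PGK1* (0.14), *ENO1* (0.138), *PYGB* (0.093), *PYGL* (0.054) and *PHKA1* (0.057). Without the filter on low counts the sign turned for *PFKP* (-0.015), *ALDOA* (-0.023) and *GAPDH* (-0.027), and with at least 10 counts in at least 4 clones for *PFKP* (-0.011), *ALDOA* (-0.019) and *GAPDH* (-0.023). *GAPDH* was -0.0016 with DESeq2 and with RLE size factors. When single clones were removed, values ran from -0.089 to 0.413 for *HK2*, -0.0086 to 0.224 for *GPI*, -0.201 to 0.019 for *PFKM*, -0.132 to 0.147 for *PFKP*, -0.161 to 0.105 for *ALDOA*, -0.497 to 0.213 for *ALDOC*, -0.051 to 0.042 for *GAPDH*, -0.107 to 0.032 for *PGK1*, -0.070 to 0.0088 for *ENO1*, -0.131 to 0.0011 for *PYGB*, -0.200 to 0.071 for *PYGL*, -0.045 to 0.266 for *GYS1* and -0.044 to 0.080 for *PGM1*. The cause of these shifts was not tested.

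The clone numbers were not treated as pairs. The deviations of same-numbered clones correlated by -0.0093 to 0.14 (mean 0.055, against -0.018 for differently numbered clones), and 2 of 4 clones correlated best with their own number, which does not show whether clones share an animal. With the number as a block, 8 members and 1489 genes were past the threshold, against 7 and 1618 without it. The member gained was *PDK3*. Low counts limit *CKM*, *PYGM*, *MB* and *SLC16A3* in SF clones, where their fold changes rest on 12 counts or fewer in each clone.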
